A study of Homo sapiens with 30 samples.

Results

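HCC1954, an ERBB2-amplified and estrogen receptor negative human breast cancer cell line, was followed after addition of recombinant BMP7 on 6 of the 30 arrays of the experiment, which covered 5 breast cancer cell lines. Each array compared BMP7-treated HCC1954 cells (Cy5) with vehicle-treated HCC1954 cells (Cy3) of the same time point, with 2 arrays in the first hour (30 min and 1 h) and 4 later ones (3, 6, 12 and 24 h). Replicate cultures had been pooled before labeling and each time point had 1 array, so no condition has a replicate and every error below is a spread between time points. The 4 later arrays, called the late arrays, were set against those of the first hour. All values are log2 ratios of BMP7 over vehicle unless stated otherwise, so 0 is an equal signal and 1 is a 2-fold higher signal in the BMP7-treated cells. No dye was swapped, and a dye effect of a probe that is the same on all arrays cancels in the difference between late and first-hour arrays but not in a ratio itself. Of the 41000 probes, 25630 were well above background in both channels on at least 4 of the 6 arrays and had a value on every array, and they included 12941 named genes. A gene was read from its probe with the brightest vehicle signal.

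The 30 min array stood apart technically. It was the only HCC1954 array of the second scan batch and the only one on its slide, so time and batch cannot be told apart in it, and it is reported apart from 1 h. The 1 h, 3 h and 6 h arrays shared a slide, as did the 12 h and 24 h arrays. The SD of the ratios over the 25630 probes was 0.35 at 30 min, 0.27 at 24 h and between 0.19 and 0.23 on the other 4 arrays. The share of probes measurable in both channels ran from 61.8% to 65.6%. The labelled cell type was checked in the vehicle channel. All 10 epithelial markers and all 5 genes of the HER2 amplicon, ERBB2 included, were well above background on 6 of 6 arrays, as were 1 of 6 fibroblast markers (COL1A1), 4 of 6 immune markers and 2 of 5 endothelial markers. The leukocyte marker PTPRC, the endothelial marker TIE1, the progesterone receptor gene PGR and 5 fibroblast markers were well above background on 0 arrays. Of 6 luminal hormone receptor markers, 4 were well above it on all 6, namely ESR1, TFF1, XBP1 and FOXA1. The log2 vehicle signal relative to the 75th percentile of the array was between -4.12 and -3.65 for ESR1 and between 4.27 and 5.05 for XBP1.

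BMP7 is a secreted ligand of the TGF-beta superfamily. BMP ligands assemble type I and type II serine/threonine kinase receptors, the receptors phosphorylate SMAD1, SMAD5 and SMAD9, and these enter the nucleus with SMAD4 and bind regulatory DNA of target genes. The best known direct targets are the ID genes, whose products bind basic helix-loop-helix transcription factors and keep them from DNA, and SMAD6 and SMAD7, whose products inhibit the pathway.

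The probes that turned out to separate the late arrays from the first hour most clearly belonged to ID1, ID2 and ID3. The 250 bases before the start of each gene are shown 5′ to 3′ for orientation (RefSeq, GRCh38.p14). No BMP target gene passed the threshold of the test below, so these 3 genes were chosen for display after their values had been seen. Short motifs associated with SMAD binding were searched on both strands, namely GGCGCC with its relative GGAGCC, the shorter CAGAC, and the palindrome GTCTAGAC, none of which contains another. Matches are in capitals. The ID1 stretch is chr20:31605039-31605288 on the + strand, the ID2 stretch is chr2:8681806-8682055 on the + strand, and the ID3 stretch is chr1:23559502-23559751 on the - strand.
ID1: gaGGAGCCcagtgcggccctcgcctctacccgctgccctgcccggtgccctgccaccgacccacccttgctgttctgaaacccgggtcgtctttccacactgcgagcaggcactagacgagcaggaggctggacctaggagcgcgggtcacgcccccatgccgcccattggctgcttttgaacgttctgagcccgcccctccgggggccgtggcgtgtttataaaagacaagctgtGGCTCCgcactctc
ID2: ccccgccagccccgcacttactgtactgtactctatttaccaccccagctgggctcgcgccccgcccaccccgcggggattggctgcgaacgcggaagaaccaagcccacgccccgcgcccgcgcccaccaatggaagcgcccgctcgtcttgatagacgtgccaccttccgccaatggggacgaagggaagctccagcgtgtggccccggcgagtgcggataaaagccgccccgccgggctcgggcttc
ID3: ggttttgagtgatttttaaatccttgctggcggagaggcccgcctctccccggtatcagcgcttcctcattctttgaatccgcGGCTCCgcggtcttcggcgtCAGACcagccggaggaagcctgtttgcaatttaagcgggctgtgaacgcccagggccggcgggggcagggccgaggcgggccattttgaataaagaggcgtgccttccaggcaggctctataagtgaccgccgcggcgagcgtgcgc
GGAGCC or its reverse complement occurred at 2 places before ID1 and at 1 place before ID3, and CAGAC at 1 place before ID3. None of the 4 motifs was found in the ID2 stretch, which says only that these letters are not in that window. Among 35116 promoter stretches of the same length, 30.6% held GGAGCC, 38.0% CAGAC, 16.4% GGCGCC and 0.182% GTCTAGAC on either strand, so the matches are common by their letters alone.

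ID1, ID2 and ID3 had ratios near 0 in the first hour and were about 2-fold higher in BMP7-treated cells from 3 h to 24 h. For ID1 (probe at chr20:29657819-29657878, hg18) the log2 ratio was 0.11 and 0.08 in the first hour and then 1.32, 1.09, 1.15 and 0.99 on the late arrays in order of time. The late values lay close together and far above both first-hour values, and the lowest late value exceeded the highest first-hour value by 0.87. The difference between the periods was 1.04 (limma SE 0.12, 4 against 2 arrays), a 2.06-fold higher ratio. For ID2 (chr2:8741733-8741792) the ratio was 0.05 and 0.26 in the first hour and 1.39, 1.23, 1.01 and 1.47 later. The periods did not overlap, and their difference was 1.12 (SE 0.14), the largest of any named gene among those whose periods did not overlap. For ID3 (chr1:23758253-23758312) the ratio was -0.06 and 0.26 in the first hour and 1.15, 0.87, 0.85 and 0.98 later. Here too every late array lay above the first hour, with a difference of 0.86 (SE 0.13).

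Of the 25630 probes tested with limma for late against first-hour arrays, 0 passed the adjusted p of 0.05 (0.0% called, with 1505 at an unadjusted p under 0.05). Without the 1 h array, so that 30 min stood alone for the first hour, 19 probes passed, and without the 24 h array 1 did. ID1, ID2 and ID3 nevertheless ranked 1, 2 and 3 by p among all probes, with limma adjusted p of 0.203, 0.303 and 0.576. On the 1 slide that held both periods, where 3 h and 6 h were set against 1 h with 1 residual degree of freedom, the differences were 1.12 for ID1, 1.05 for ID2 and 0.75 for ID3. limma called 221 probes in that fit (132 higher, 89 lower), these 3 among them, but its only residual is the difference between 3 h and 6 h and the spread of the first hour was not measured, so the calls give no support. With an intensity trend in the variance model, ID1 was past the threshold (adjusted p 0.0272) and was the only probe called.

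**Figure D1:**
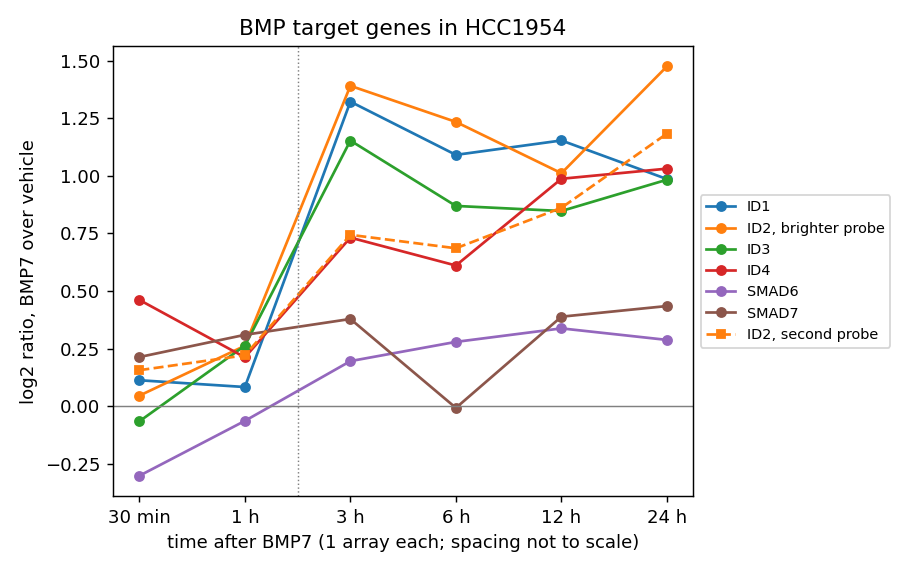
Log2 ratio of BMP7 over vehicle (y axis) at each of the 6 time points (x axis, 1 array each, spacing not to scale) for ID1, ID2, ID3, ID4, SMAD6 and SMAD7 in HCC1954, with both ID2 probes. The dotted line divides the first hour from the late arrays. ID1, ID3 and the brighter ID2 probe step from at most 0.26 in the first hour to at least 0.85 later, the second ID2 probe to at least 0.69, while SMAD7 shows no such step.

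The remaining members of the group gave smaller differences. The other ID2 probe (chr2:8740093-8740481) read 0.16, 0.22, 0.74, 0.69, 0.86 and 1.18 from 30 min to 24 h. It ran in the same direction as the brighter probe, with a smaller difference of 0.68 (SE 0.14). ID4 read 0.46 and 0.21 in the first hour and 0.73, 0.61, 0.99 and 1.03 later. Its periods were separated by only 0.15, and the difference was 0.50 (SE 0.15, limma adjusted p 0.796). SMAD6 was below 0 in the first hour (-0.30 and -0.06) and between 0.20 and 0.34 on all late arrays. The periods of this inhibitory SMAD thus lay apart, with a difference of 0.46 (SE 0.11, limma adjusted p 0.796) that stayed under 1.5-fold. SMAD7 read 0.21, 0.31, 0.38, -0.01, 0.39 and 0.44, and its difference was 0.04 (SE 0.14), a value whose sign depended on the processing.

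The levels of the separate channels, given as log2 signal relative to the 75th percentile of the array, are given beside the ratios. For ID1 the vehicle level averaged 0.91 lower on the late arrays than in the first hour, and the BMP7 level 0.12 higher. In both ID2 and ID3 the vehicle level was lower as well, with late minus first-hour differences of -1.27 and -0.92, against -0.15 and -0.06 in the BMP7 channel. The 1 h array carried the highest vehicle level of the course for ID1 (5.52), ID2 (1.26), ID3 (0.52) and ID4 (3.50). At 3 h and 6 h the vehicle levels of ID1 were 3.87 and 3.87, and the BMP7 levels 5.19 and 4.97. The first-hour means of the levels rest on the 1 h array. Set against 30 min alone, the ID2 vehicle level was -0.98 there and between -1.41 and -0.77 on the late arrays, and the BMP7 level -0.93 there and between -0.08 and 0.71 later. For ID3 the vehicle level was -0.84 at 30 min and between -1.56 and -0.41 later, and the BMP7 level -0.90 and between -0.68 and 0.43. Without 1 h, the difference of ID2 and ID3 thus lay mainly in the BMP7 channel, so for these genes the channel that carried it depended on that array. The same was not seen for ID1, whose vehicle level at 30 min also lay above all its late levels. A level is read between arrays, so slide and hybridization enter it, and their part was not tested.

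A pair of probes with no gene symbol lay beside the ID probes and had higher late ratios too. Probe A_32_P149011 (chr20:29657031-29657090) lies 728 bases from the ID1 probe, and the file lists its coordinates in the opposite order. Its ratio was -0.65 and -0.58 in the first hour, 0.92, 0.85 and 1.05 from 3 h to 12 h, and 0.11 at 24 h. The difference of 1.35 (SE 0.23, limma adjusted p 0.633) exceeded that of ID1, and the 24 h value was well below the other late values. Probe A_32_P123589 (chr1:23757351-23757410) lies 842 bases from the ID3 probe, again in the opposite order. Its ratio was 0.13 and -0.14 in the first hour and 0.67, 0.69, 0.68 and 0.70 on the late arrays, a difference of 0.69 (SE 0.11, limma adjusted p 0.576) that ranked 4 by p. Both were picked out after their values had been seen, and no annotation of their build was used, so the transcript each one measures is not known here.

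A description without a test was also made over all genes. A gene was counted as shifted where all late values lay above, or all below, both first-hour values and the means differed at least 1.5-fold. Of 12941 genes, 18 were shifted up (0.139%) and 11 down (0.085%), and over all 25630 probes the counts were 48 up (0.187%) and 36 down (0.14%). Without a minimum fold, 964 genes (7.45%) had their late values above the first hour and 571 (4.41%) below, or 1827 (7.13%) and 1258 (4.91%) of the probes. Of the 38 genes on a list of known BMP targets, 32 had a probe that passed the filter. Of these, 3 were shifted up (ID1, ID2 and ID3) and 0 down, and without a minimum fold 7 lay apart upward and 2 downward. The other genes apart upward were ID4, SMAD6, BAMBI, which encodes a decoy receptor, and EGR1, and those apart downward were HES1 and TGIF1, a SMAD corepressor. The median difference of the 32 genes was 0.10, against 0.02 over all genes.

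**Figure D2:**
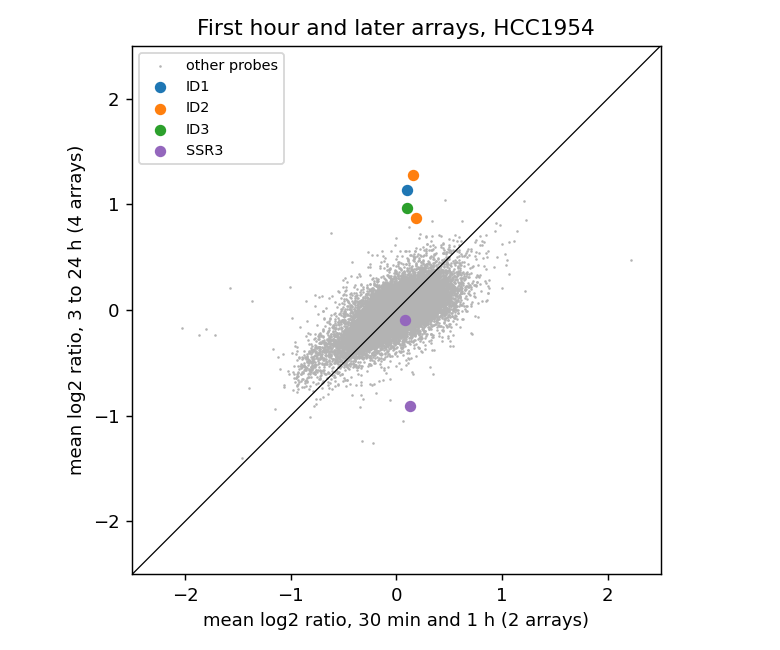
Mean log2 ratio of each of the 25630 probes on the late arrays (y axis, 4 arrays) against its mean in the first hour (x axis, 2 arrays), with the diagonal of equal ratios. The probes of ID1, ID2 and ID3 lie above the cloud with late means from 0.87 to 1.28, and the 2 probes of SSR3 lie apart from each other, at late means of -0.91 and -0.09.

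Beyond the ID genes, the larger differences were less even over time. The shifts named here and in the next paragraph were taken over all probes with a gene symbol. Such a probe need not be the brightest of its gene, by which the 18 upward and 11 downward genes above were counted. CX3CR1, a chemokine receptor gene, read -0.57, -0.27, 0.75, 0.35, 0.89 and -0.16, and its difference of 0.87 (SE 0.26) came with a 24 h value just above the first hour. SAMD11 read -0.36 and -0.18 in the first hour, 0.32, 0.35 and 0.44 from 3 h to 12 h and 1.08 at 24 h, a difference of 0.82 (SE 0.20). The other named genes among the 10 largest upward shifts were GPM6A (0.84), ABL1 (0.81), TCF7L1 (0.79), a transcription factor of the WNT pathway, FCN1 (0.75) and MAP9 (0.72). In GPM6A, ABL1 and TCF7L1 the 30 min value (-1.23, -1.21 and -0.88) was far below the 1 h value (-0.18, -0.33 and -0.09), so much of the difference rested on the 30 min array. The other probes of ABL1 gave 0.04 and 0.31, and those of MAP9 0.15 and 0.19.

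Among the downward shifts, SSR3, a subunit of the translocon-associated protein complex of the endoplasmic reticulum, had the largest difference, by a probe that is not its brightest. Over genes read from their brightest probe, the lowest difference was -0.95. One of its probes read 0.27 and -0.02 in the first hour and -1.38, -1.40, -0.15 and -0.71 later, a difference of -1.03 (SE 0.32). The low values were on the 3 h and 6 h arrays, and the other probe of the gene read between -0.36 and 0.13 on all arrays, with a difference of -0.18 (SE 0.14). RNF125, a ubiquitin ligase gene, was the most even of the downward genes, at 0.25 and 0.05 in the first hour and -0.58, -0.77, -0.49 and -0.48 later. Its difference was -0.73 (SE 0.12, limma adjusted p 0.633) by this probe and -0.14 (SE 0.12) by its other probe. The remaining named genes were ZNF827 (-0.95), UTP25 (-0.92), KIF1C (-0.86), CXCL10 (-0.81), MAPRE2 (-0.79), FLJ42393 (-0.78), ITPR2 (-0.74) and ZNF124 (-0.73). In ZNF827, UTP25, MAPRE2 and ITPR2 the 12 h array held the lowest value (-1.43, -0.90, -0.90 and -0.93). UTP25 was lower by all 4 of its probes (-0.92, -0.47, -0.20 and -0.20), whereas a further probe of KIF1C gave 0.06. The limma adjusted p of the first-named probe was 0.796 for each gene in this and the preceding paragraph whose p is not given.

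These shifts depended on the processing. Both settings below replace the background correction and the normalization together, so the parts of the steps cannot be told apart. With normexp correction followed by loess, 7 of the 48 upward probes and 4 of the 36 downward probes met the rule again, and the named genes among them were ID1, ID2, ID3 and HNRNPA3 upward and SSR3, APOL6, PAICS and PTGER4 downward. With normexp and median scaling, which applies no correction by intensity, the median of all probes moved by -0.62 and ID1, ID2 and ID3 no longer met the rule. Under that setting the ID1 ratio was 1.62 at 30 min and 1.10 at 1 h, and relative to the median of all probes its difference remained positive, at 0.65. As fitted there, without that reference, the differences were 0.02 for ID1, -0.55 for ID4 and -0.0088 for SMAD6.

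The genes upstream of the targets are read against all genes, of which 7.45% lay apart upward and 4.41% downward. The counts in these short lists are near those shares and do not show equal levels. Of 12 receptor and coreceptor genes 8 passed the filter, and 0 of them lay apart between the periods. BMPR1A, BMPR2, ACVR1, ACVR2A and ACVR2B, which encode receptors that can bind BMP7, were well above background on all 6 arrays, and BMPR1B on 4. The median difference of the 8 genes was -0.15, between -0.33 (ACVR1) and 0.17 (ACVR2B). Among 16 measured SMAD genes and cofactors 1 lay apart, CTDSP1, at 0.22 (SE 0.11). Their differences ran from -0.40 (EP300) to 0.23 (SMAD9). SMAD1, SMAD5 and SMAD4 differed by -0.02 (SE 0.11), -0.19 (SE 0.12) and -0.31 (SE 0.19). The BMP7 gene itself had ratios between -0.01 and 0.11 on all arrays. BMP4 read -1.81 at 30 min and between -0.39 and 0.23 on the other 5 arrays, a difference of 0.91 (SE 0.37). Of 9 measured antagonists, NBL1 lay apart upward (0.29, SE 0.11), and NOG, which encodes noggin, differed by 0.30 (SE 0.19) with its highest value, 0.50, at 12 h.

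The counts of genes lying apart in this paragraph are to be read against the 7.45% upward and 4.41% downward over all genes, and several are near those shares. Of the 34 other gene lists, 0 held a shifted gene. Over all genes only 0.139% were shifted up and 0.085% down, so a count of 0 says little about these lists. Their median differences lay between -0.19 and 0.17. The highest median was that of WNT genes, of which 5 of 15 measured genes lay apart upward (WNT3, WNT4, WNT10A, WNT11 and FZD1, by 0.19 to 0.29) and 0 downward. Of 17 GATA and homeobox factors, 4 lay apart upward, among them DLX4 (0.45), SOX2 (0.37) and TBX2 (0.32), and 0 downward. Immediate early genes were split, with 5 of 27 apart upward and 4 downward. Among 28 proliferation genes 3 lay apart in each direction. PCNA (-0.11, SE 0.10), MCM4 (-0.28, SE 0.10) and MCM6 (-0.20, SE 0.12) were lower on the late arrays than in the first hour. BIRC5 (0.08, SE 0.10), AURKB (0.15, SE 0.10) and CCNB2 (0.11, SE 0.10) were higher. These directions are relative to the first hour and not to vehicle, and PCNA was above 0 on every array. The 4 of 29 matrix and protease genes that lay apart downward were PLAU, PLAUR, TNC and THBS1. ERK feedback genes had 2 of 15 apart downward, DUSP5 (-0.39, SE 0.10) and SPRY2 (-0.25, SE 0.11). Of 16 apoptosis genes, BAX, BMF and BCL2L11 lay apart upward and 0 downward, although BAX was below 0 on every array. Of 17 inflammatory cytokines CXCL2, LIF and IL24 lay apart downward and 0 upward. No gene of the keratin, ribosomal protein, ERBB or HER2 amplicon lists lay apart. None of these genes passed the limma threshold. A list that the original work drew up from these same arrays, as the genes most regulated after BMP7, is not independent of them. Of its 29 genes 16 were measured, and 2 were shifted (ID1 and ID3).

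Interferon-stimulated genes had the lowest median difference, -0.19, and differed most between single arrays. The median ratio of the 19 measured genes ran -0.26, 0.31, -0.0031, -0.38, -0.38 and 0.13 over the 6 time points. At 6 h 18 of the 19 genes were below 0, whereas at 1 h 1 was. IFI44L read -1.38, 0.74, -0.36, -2.56, -2.29 and 0.27 from 30 min to 24 h, and IFIT1 read -0.55, 0.54, -0.18, -1.49, -0.57 and 0.11. At 6 h IFIT3 (-1.27) and RSAD2 (-1.06) were also more than 2-fold lower in BMP7-treated cells, and these 4 genes encode antiviral or interferon-induced proteins. At 6 h the channel level of IFI44L was -3.08 in vehicle and -5.63 in BMP7-treated cells, and that of IFIT3 -2.41 and -3.66. The IFI44L levels were -5.19 in vehicle and -5.56 in BMP7-treated cells at 3 h, and -3.34 and -2.61 at 1 h. From 3 h to 6 h the vehicle level moved more than the BMP7 level in all 4 genes. Between 1 h and 6 h the BMP7 level moved more in all 4. The channel that carried the low 6 h ratios thus depended on the array compared, and the part of hybridization was not tested. IFI44L and RSAD2 were well above background in both channels on only 5 arrays. For IFI44L the exception was 12 h, where its BMP7 level was -6.38. With normexp and loess, IFI44L was -1.55 at 6 h and -0.61 at 12 h and the median of the list -0.31 and -0.27, and with normexp and median scaling the median turned sign at 30 min (0.63) and at 24 h (-0.17). The late against first-hour difference of no gene in the list passed the limma threshold.

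**Figure D3:**
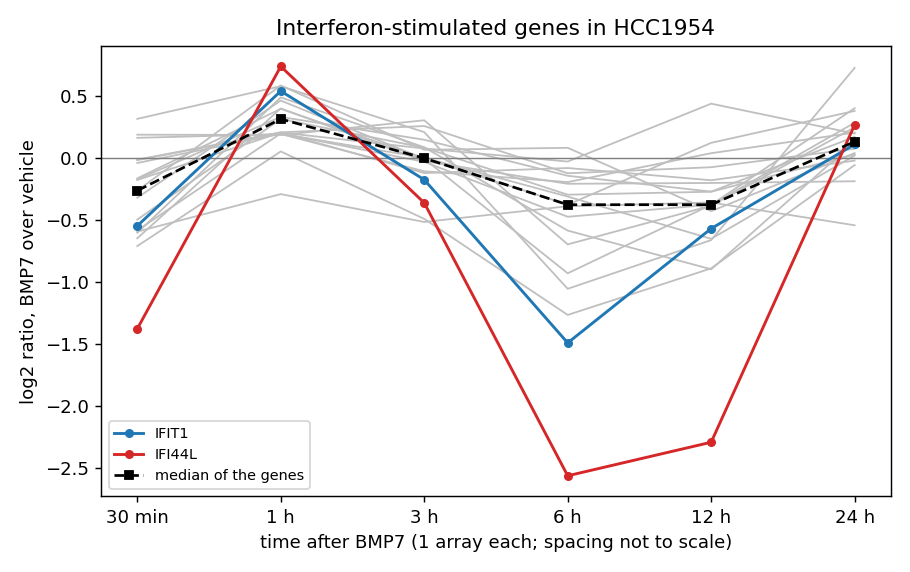
Log2 ratio of BMP7 over vehicle (y axis) on the 6 arrays (x axis, spacing not to scale) for the 19 measured interferon-stimulated genes in HCC1954. Gray lines are single genes, IFI44L and IFIT1 are in color, and the dashed black line is the median, which is 0.31 at 1 h and -0.38 at 6 h and at 12 h.

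Taking each array by itself, few probes differed 2-fold. Among probes well above background in both channels, 220 were at least 2-fold different at 30 min (69 higher, 151 lower) and 99 at 24 h (23 higher, 76 lower). The 4 arrays between held 26, 25, 34 and 21 such probes. The largest share was 0.849%, at 30 min. Only 2 probes were at least 2-fold higher on 3 or more late arrays, ID2 on 4 and ID1 on 3, and neither was in the first hour. At least 2-fold lower on 3 or more late arrays was 1 probe, of the serine protease gene TMPRSS9, which read between -1.82 and -1.06 on all 6 arrays, the first hour included. GIPR, an incretin receptor gene, was likewise above vehicle throughout, at 1.20 and 1.22 in the first hour and 1.30, 1.28, 0.69 and 0.87 later.

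The highest and lowest named probes of each array are given next. At 30 min the highest were DEFB103B (1.87), TMPO (1.51) and EXOC5 (1.46), and the lowest COL26A1 (-4.60), FLYWCH1 (-4.01) and PRAC1 (-3.53). At 1 h TAS2R19 (1.62), GIPR (1.22) and WIF1 (1.14) led, with DUX4 (-1.25) and DRD4 (-1.22) at the other end. None of these genes is on the BMP target list. DEFB103B was measurable in both channels on 2 arrays and COL26A1 on 1, and the spots of FLYWCH1 and PRAC1 were brighter in both channels at 30 min than on any other array. A local defect of such spots was not tested. At 3 h the order was ID2, ID1 and GIPR, with TMPRSS9, SSR3 and DLSTP1 (-1.37) lowest. At 6 h NDP (1.30), measured in both channels on that array alone, was followed by GIPR and ID2, and IFI44L, IFIT1 and SSR3 were lowest. ID1 and ID2 were again among the 3 highest at 12 h, with FAIM2 (1.06), and TMPRSS9, DUX4 (-1.02) and ATL1 (-1.01) were lowest. At 24 h ID2 was followed by DLX2 (1.35), a homeobox gene, and ITGA2 (1.26), an integrin gene, and PCDH19 (-4.13), measurable on that array alone, TRIM46 (-1.83) and TMPRSS9 were lowest. These DLX2 and ITGA2 probes were also high in the first hour (1.10 and 0.90, and 0.88 and 0.76) and lower in between. The DLX2 probe was well above background in both channels on 4 arrays, and the brightest DLX2 probe read 0.56 and 0.64 in the first hour and 1.22 at 24 h.

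Set against the 1 h array alone, which shares the scan batch of the late arrays, 0 of 25630 probes passed the limma threshold (0.0% called, 717 at an unadjusted p under 0.05). ID1 again had the smallest p of all probes, with a difference of 1.05 (SE 0.15), but its limma adjusted p was 1. ID2 differed by 1.01 (SE 0.18), ID3 by 0.70 (SE 0.15) and ID4 by 0.63 (SE 0.18). The single 1 h array is taken in this fit to vary as the late arrays do.

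Set against 30 min alone, 18 probes passed the limma threshold (0.0702% called), 14 higher and 4 lower on the late arrays. The fit takes the single 30 min array to vary as the late arrays do, although its SD over probes was 0.35 against 0.19 to 0.27 for them, so the p-values below hold only under that assumption. ID1 (1.02, SE 0.15), ID2 (1.23, SE 0.18) and ID3 (1.03, SE 0.15) were close to it, each with a limma adjusted p of 0.0737. The 18 probes did not include a BMP target. In 17 of them the 1 h value lay within 0.5 of the late mean, so the 30 min array alone stood out. FLYWCH1 read -4.01 at 30 min and between -0.20 and -0.04 on the other 5 arrays, a difference of 3.85 (SE 0.12, limma adjusted p 2e-05). YIF1B (-3.50 at 30 min), PRAC1 (-3.53), SEMA3C (-3.52), AIRE (-3.22) and CORO1C (-2.91) behaved alike, and probe A_24_P264573 read 4.25 at 30 min and 0.19 to 0.77 otherwise. The spots of these 6 genes were brighter in both channels on the 30 min array than on any other, and that of A_24_P264573 in the BMP7 channel alone. The vehicle level of FLYWCH1 was 5.60 there and between -3.01 and -2.33 on the other arrays, and its BMP7 level 1.59 and between -3.19 and -2.46. For AIRE the vehicle level was 4.42 against at most -4.67, and for SEMA3C 5.56 against at most -1.26. Of the named genes, 8 had other probes that passed the filter, and 0 of those 14 probes passed the threshold. With normexp and loess most of the 18 probes no longer passed, and AIRE and BCOR turned sign. The number of calls also changed when arrays were left out. The part of the spots and of the scan batch in these calls was not tested.

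**Figure D4:**
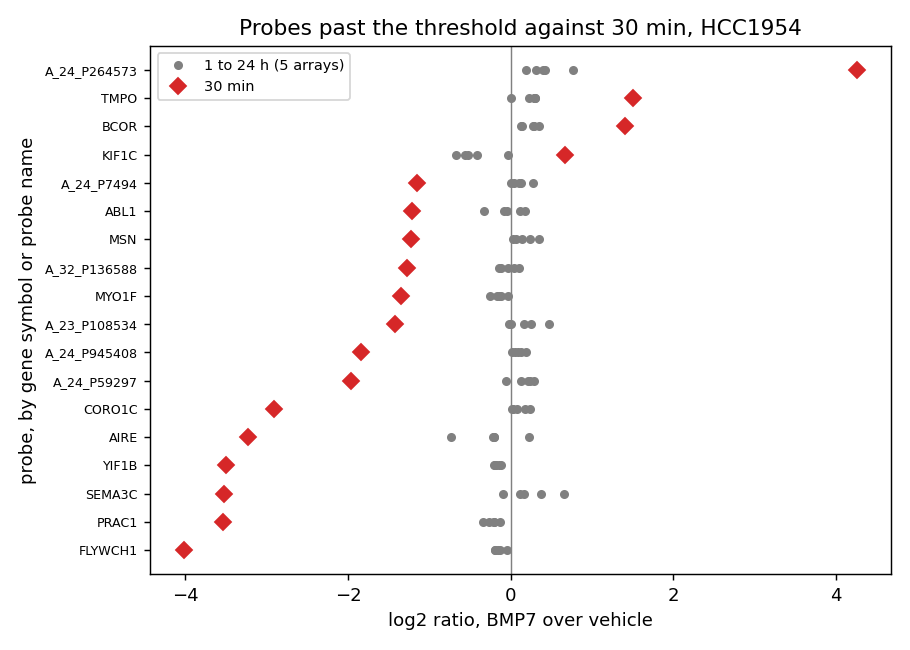
Log2 ratio of BMP7 over vehicle (x axis) of the 18 probes past the limma threshold in late arrays against 30 min, one row for each probe. Red diamonds are the 30 min array and gray points the 5 other arrays. All but KIF1C lie beyond 1 or -1 at 30 min, while the other arrays lie between -0.73 and 0.77.

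For 12 h and 24 h against 3 h and 6 h, 0 of 25630 probes passed the limma threshold (0.0% called, 1838 at an unadjusted p under 0.05). The difference was -0.14 (SE 0.13) for ID1, -0.07 (SE 0.17) for ID2, -0.10 (SE 0.16) for ID3 and 0.34 (SE 0.13) for ID4, with limma adjusted p of 0.802, 0.93, 0.89 and 0.691. The second ID2 probe gave 0.31 (SE 0.14). ID1 was higher at 12 h and 24 h than at 3 h and 6 h in both channels, at vehicle levels of 4.68 and 4.74 against 3.87 and 3.87. A p above the threshold does not show equal levels. Slides coincided with this comparison, since 3 h and 6 h lay on one slide and 12 h and 24 h on another. Over the 25630 probes Pearson's r was 0.71 between 3 h and 6 h and 0.45 between 12 h and 24 h, and it was also 0.71 between 1 h and 24 h, on different slides. The lowest r, 0.29, was between 30 min and 3 h. Probes of an array share its labeling and dye effects, so these values describe the arrays.

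The late against first-hour difference of HCC1954 was compared with the mean of that difference in the 4 other cell lines. Their scan batches fell otherwise, with 30 min and 6 h of MDA-MB-231 and ZR-75-30 and 3 h of T-47D in the second. The 6 h array of ZR-75-30 had an SD of 0.61 over its probes. On that of MDA-MB-231 only 51.7% of probes were measurable in both channels. Of 25759 probes 0 passed the limma threshold (0.0% called, 466 at an unadjusted p under 0.05). ID1 differed by 1.04 in HCC1954. The value was higher in MDA-MB-361 (1.22) and MDA-MB-231 (1.21) and lower in T-47D (0.45) and ZR-75-30 (0.32), and the excess of HCC1954 over their mean was 0.24 (SE 0.41, limma adjusted p 1). The excess was 0.22 (SE 0.29) for ID2, 0.12 (SE 0.28) for ID3, 0.11 (SE 0.27) for ID4 and -0.09 (SE 0.23) for SMAD6. For ID4 the mean joins unlike lines, at 1.09 in MDA-MB-361, 0.85 in MDA-MB-231, -0.08 in T-47D and -0.29 in ZR-75-30. Probes were filtered by their signal on the HCC1954 arrays alone, so a probe can be dim in another line. The late ID1 values ran from 0.99 to 1.32 in HCC1954, from 0.41 to 0.77 in ZR-75-30, from 0.29 to 0.84 in T-47D, from 0.88 to 1.89 in MDA-MB-361 and from 0.54 to 2.62 in MDA-MB-231.

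A probe set of the original work was read in HCC1954 alone. It holds the probes shared by a cluster found after BMP4 treatment and a cluster found after BMP7 treatment, so these arrays entered its choice and its pattern is described and not tested. The set has 210 probes. The median log2 ratio of the set ran -0.99, -0.61, -0.37, -0.28, -0.52 and -0.88 over the 6 time points, and that of all tested probes lay between -0.0068 and -0.0017. At least 198 of the 210 probes were below 0 on every array, and all 210 were at 24 h. The set was thus lowest at both ends of the course and nearest to vehicle at 6 h, a course unlike that of the ID genes. Of its 203 probes that passed the filter, 0 were shifted at least 1.5-fold, where 0.187% of all probes were shifted up and 0.14% down. At any size 13 lay apart upward and 0 downward, where 7.13% and 4.91% of all probes did.

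**Figure D5:**
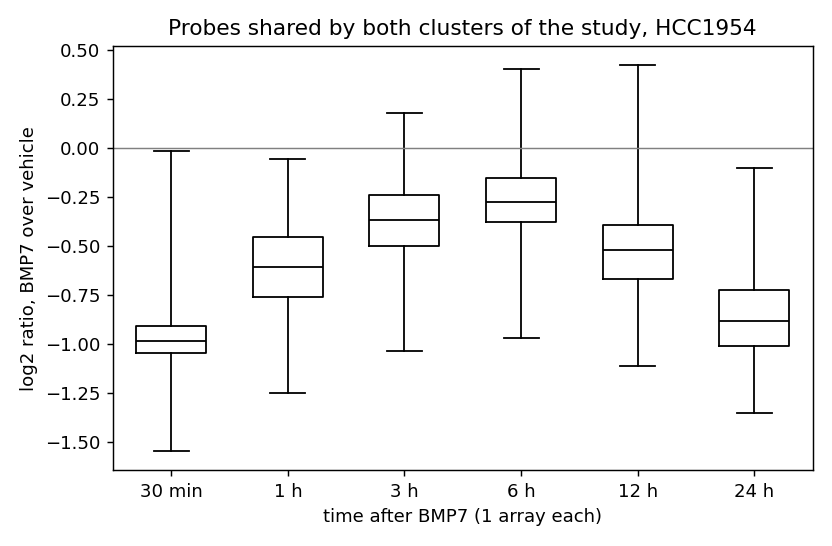
Log2 ratio of BMP7 over vehicle (y axis) of the 210 probes on each of the 6 arrays (x axis). Boxes run from the lower to the upper quartile with the median as a line, and whiskers reach the lowest and highest probe. Medians go from -0.99 at 30 min to -0.28 at 6 h and -0.88 at 24 h.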

How the data were processed

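The 6 HCC1954 arrays are Agilent 2-color arrays. The log10 ratios of red over green were computed, per the file headers, by Feature Extraction 9.5.1.1 from background-corrected and dye-normalized signals. Channel intensities are the processed signals that the authors deposited beside them. A value matrix in log2, also by the authors, served as an alternative.

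Ratios were put on the log2 scale without control or outlier-marked spots, averaged over the spots of each probe and centered on each array's median. Of 41000 probes, 27745 were matched to a RefSeq symbol. Probe coordinates are hg18 as in the files. All tests are limma's (version 3.58.1, R 4.3.3, lmFit and eBayes, Benjamini-Hochberg over all probes tested, threshold 0.05), checked on data with known answers. The number of arrays limits the precision. Tables were made with Python 3.11.15 and pandas 2.3.3.

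The cell line, the members and the gene lists were chosen with earlier results of these data known. Named genes were the BMP targets ID1 to ID4, SMAD6 and SMAD7, the 10 largest upward and 10 largest downward shifts without overlap of the periods, list members past the threshold or shifted, and the 3 highest and 3 lowest named probes of each array. The 10 largest shifts were taken over all probes with a gene symbol and not over the brightest probes alone. Some genes that this rule or a list takes in are not reported here. Alternatives were normexp (offset 50) with loess or median scaling, the matrix, no median shift, other filters on dim probes, outlier spots kept, a trend in the variance, all 30 arrays, slide or scan batch as a term, and leaving out arrays or lines.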

Additional observations from a re-analysis of the deposited data

Results flagged for a closer look

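Among 32 probes examined, a late array stood far from the other 3 late arrays, by a gap that took up most of their range, in 3 cases. SMAD7 was at -0.0066 at 6 h and between 0.38 and 0.44 on the others. SAMD11 was at 1.08 at 24 h and between 0.32 and 0.44 on the others. MAPRE2 was at -0.90 at 12 h and between -0.13 and -0.02 on the others. Chance alone marks about 1 in 20 such groups where they are not picked by their values. SAMD11 and MAPRE2 were picked for the size of their shifts, so that rate need not hold here. The time points are also not replicates of a condition.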

How the results depend on the processing

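For late against first-hour arrays, the count of probes past the threshold was 0 and stayed 0 except with an intensity trend in eBayes (1), on the slide that held both periods (221) and when arrays were left out in turn (0 to 19, the 19 without 1 h). Against 1 h it was 0, and 199 with no filter on dim probes and 1 with all 30 arrays. Against 30 min it was 18, and 45 with normexp and loess, 17142 (488 up, 16654 down) with normexp and median scaling, 28 with the matrix values, 824 with no filter, 43 with the trend, 9 with all 30 arrays and 9 to 438 when arrays were left out (438 without 24 h). The difference from the other lines gave 0, and 3 with normexp and median scaling and 6 with no filter. For 12 h and 24 h against 3 h and 6 h the count was 0, and 4 with no filter. The shifts without overlap numbered 84, and 13 with normexp and loess, 10383 with normexp and median scaling, 412 with no filter, 47 with 6 of 6 arrays well above background, 6 at 2-fold and, chosen after seeing the data, 3085 with no minimum fold. The median count of 2-fold probes per array was 30.0, and 10.5, 167.5, 373.0 and 15.5 under the first 4 of these settings and 465.5 at 1.5-fold. Normexp with median scaling moved the median of all probes by -0.62 (against 30 min -0.96), and relative to it the sign turned for ZNF827 (0.61), UTP25 (0.65), KIF1C (0.82), CXCL10 (0.60), MAPRE2 (0.81), FLJ42393 (0.67), ITPR2 (0.68) and RNF125 (0.49), and against 30 min for AIRE (-0.15), KIF1C (1.38) and BCOR (1.62). With normexp and loess it turned for SMAD7 (-0.0331), AIRE (-0.19) and BCOR (0.0643). SMAD7 also turned on the slide of both periods (-0.12), with scan batch as a term (-0.0111) and with arrays left out in turn (-0.0111 without 30 min, -0.0083 without 24 h, up to 0.139 without 6 h), and KIF1C with its other probe (0.0576). ID1 (0.65 to 1.12), ID2 (0.93 to 1.23), ID3 (0.65 to 1.03), ID4 (0.08 to 0.63) and SMAD6 (0.26 to 0.61) kept their direction under all 18 alternatives when normexp with median scaling is read relative to the median. As fitted there, ID4 was at -0.55 and SMAD6 at -0.0088. Several of the 18 alternatives could not turn a sign. With no median shift, other filters on dim probes, the intensity trend or all 30 arrays, the ID1 difference stayed at 1.04. Scan batch as a term gave the same ID1 difference, 1.05, as leaving out 30 min. The cause of the changes between settings was not tested. Each array pairs BMP7-treated with vehicle-treated cells of its time point. Late arrays were not paired further with first-hour arrays. Signals near background and 1 array per time point limit all comparisons.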
